A study of Homo sapiens with 29 samples.

Results

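The effect of 48 h of R406 on gene expression in DHL4 cells was measured by array on 5 arrays, of 29 in the series. R406 is a small-molecule inhibitor of the tyrosine kinase SYK, and DHL4 is an established human line of diffuse large B-cell lymphoma, an aggressive tumour of the B lineage. The members were all 3 arrays labelled DHL4, R406 and 48 h and both arrays labelled DHL4 and DMSO, and every gene with a named probe set was described (12165 genes). The tested cells had received 1 µM R406 for 48 h. The cells they were set against had received the solvent DMSO alone, and the labels give those arrays no time. Further arrays were used for comparison. From DHL4 these were 3 arrays each after 2 h, 6 h and 24 h of 1 µM R406. From the lymphoma line DHL6 they were 3 arrays after 48 h of 1 µM R406 and 3 arrays in DMSO. The DHL4 arrays at 2 h and 6 h served for levels and for the estimate of spread. DHL6 arrays after 2 h, 6 h and 24 h of 1 µM R406 (3 each) entered only the fit and the choice of probe sets. All groups grew in RPMI medium with fetal calf serum and glutamine, and each line stands for 1 cell line and not for several donors. Nothing in the labels tells if replicate arrays stem from different cultures, so the spread between them may be technical. The p-values and standard errors rest on 1 spread per gene, pooled over all 10 groups of the 29 arrays. It is not the spread of the 5 compared arrays alone. Because the DMSO arrays carry no time, time in R406 and time in culture cannot be told apart.

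SYK sits directly below the B-cell receptor. After the receptor is engaged, or through its low constant activity, SYK is recruited to CD79A and CD79B and phosphorylates the adaptor BLNK, which leads to BTK, phospholipase C, calcium and protein kinase C, and it also feeds the PI3K-AKT branch. AKT keeps FOXO transcription factors out of the nucleus and, with mTOR, promotes lipid, protein and nucleotide synthesis. Germinal-centre B cells and the lymphomas derived from them divide quickly and are marked by factors such as BCL6 and BACH2.

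Values are log2 expression per probe set as deposited, where 1 unit is a 2-fold difference. A gene was called changed when its limma p-value, adjusted by Benjamini-Hochberg over the 12165 genes, was below 0.05. A group mean below 4 was treated as near the lower end of the scale, where real differences are compressed. By that measure 57.6% to 58.8% of genes on the 48 h arrays and 57.8% and 58.9% on the DMSO arrays were near the floor. A difference may be understated where only 1 group is near the floor, and carries little information where both are. Replicate arrays of the compared groups correlated at r between 0.992 and 0.996 across genes, and no pair was identical. The B-cell identity of the line was plain in both conditions. MS4A1, which encodes CD20, measured 11.10, 10.99 and 11.10 at 48 h and 11.40 and 11.34 in DMSO, and CD79A measured between 8.92 and 9.15 at 48 h and between 8.80 and 8.83 in DMSO. Markers of other cell types were mostly near the floor in all 5 DHL4 groups: 13 of 14 T-cell markers (the exception was LCK), 11 of 11 monocyte and macrophage markers, 8 of 8 NK-cell markers and 10 of 13 fibroblast and endothelial markers. On the linear scale the 11 monocyte and macrophage markers summed to between 78 and 87 at 48 h and between 76 and 84 in DMSO. The 3 stromal markers above the floor were DCN, THY1 and PECAM1. MS4A1, CD79A and the other markers named for this check were chosen after their values were seen, as were ATF4, THY1, TM7SF2 and NUSAP1 among the genes named later.

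At 48 h of R406, 892 of 12165 genes (7.33%) differed from DMSO. Of these, 430 were higher (3.53%) and 462 were lower (3.8%), and 111 of the higher genes (0.912%) and 104 of the lower genes (0.855%) differed at least 2-fold. The median log2 fold change over all genes was 0.01, with quartiles of -0.14 and 0.14. Among the gene lists examined, the lower genes included 8 of 9 squalene-to-cholesterol enzymes, 24 of 40 mitosis genes and 11 of 21 ATF4-linked genes, and the higher genes included 9 of 27 FOXO-linked genes and 7 of 34 interferon-response genes. With only 2 DMSO arrays the number of calls depended on each of them. It was 492 without the first DMSO array and 416 without the second. Without the third 48 h array the number of lower genes was 274.

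**Figure D1:**
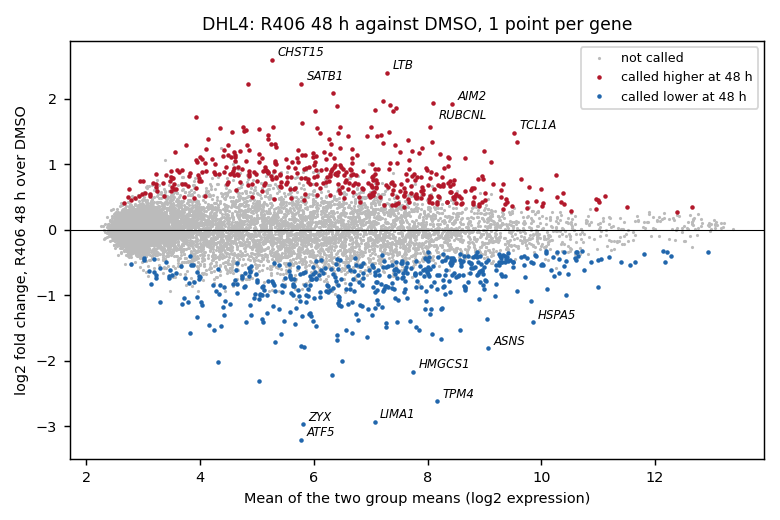
log2 fold change of R406 48 h over DMSO in DHL4 (vertical axis) against the mean of both group means in log2 expression (horizontal axis), with 1 point for each of 12165 genes. Red points are the 430 genes called higher, blue points the 462 called lower and grey points the rest, and the largest falls (ATF5, ZYX, LIMA1 and TPM4) lie further from 0 than the largest rises (CHST15 and LTB).

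CHST15, a sulfotransferase that modifies chondroitin chains, had the largest rise. It measured 6.57, 6.62 and 6.50 at 48 h, against 4.22 and 3.71 in DMSO (log2 fold change 2.59 ± 0.26 SE, adjusted p = 1.61e-07), and its DMSO mean was near the floor. LTB, which encodes lymphotoxin beta, a membrane-bound TNF family ligand of lymphocytes, measured 8.41, 8.54 and 8.51 at 48 h, against 6.12 and 6.06 in DMSO (2.40 ± 0.11, a 5.27-fold rise, adjusted p = 7.06e-13). SATB1, a chromatin organiser of lymphocytes, measured 6.86, 6.76 and 7.04 at 48 h, against 4.65 and 4.68 in DMSO (2.22 ± 0.22). For each of these genes the 48 h arrays lay close together and more than 2 log2 units above the nearest DMSO array, a gap larger than the spread within either group. That separation was a condition for naming the 15 largest rises and the 15 largest falls. Over all genes, every 48 h array lay above both DMSO arrays for 2236 genes (18.4%) and below both for 2226 genes (18.3%).

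The other large rises covered several functions. RUBCNL, a regulator of autophagosome maturation, measured 9.02, 9.07 and 9.09 at 48 h, against 7.09 and 7.17 in DMSO (1.93 ± 0.13). AIM2, a sensor of cytosolic DNA, measured 9.42, 9.40 and 9.34 at 48 h, against 7.48 and 7.45 in DMSO (1.92 ± 0.11). CXCR4, the chemokine receptor for CXCL12 that positions B cells in the dark zone of germinal centres, measured 8.32, 8.29 and 8.50 at 48 h, against 6.69 and 6.32 in DMSO (1.86 ± 0.13). RUBCNL was 3.82-fold, AIM2 3.78-fold and CXCR4 3.64-fold higher than in DMSO, with no overlap between the groups. EIF2AK3, the stress kinase PERK, rose by 2.08 ± 0.22, although its 2 DMSO values of 5.78 and 4.83 were themselves almost 1 log2 unit apart. GADD45A (1.97), the interferon-induced TRIM22 (1.91) and SP110 (1.81), and ENTPD4 (1.83), a nucleotidase of the Golgi and lysosome, completed the bright genes of this group. MBNL2 (2.22), LOXL2 (1.89), KANK2 (1.81), PECAM1 (1.72) and ENTPD4 had other probe sets that were not called, all of them near the floor, so those 5 rises rest on 1 probe set each.

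Among the falls, ATF5 and a group of actin-linked genes came first. ATF5, a transcription factor of the amino acid stress response, measured 4.74, 4.40 and 3.36 at 48 h, against 7.38 and 7.36 in DMSO (-3.20 ± 0.31, a 9.20-fold fall, adjusted p = 9.21e-08). ZYX, which encodes the focal adhesion protein zyxin, measured 4.45, 4.21 and 4.31 at 48 h, against 7.10 and 7.48 in DMSO (-2.97 ± 0.28). LIMA1, an actin-bundling LIM protein, measured 5.77, 5.57 and 5.47 at 48 h, against 8.73 and 8.35 in DMSO (-2.93 ± 0.23). The 48 h arrays lay below both DMSO arrays for all 3 genes, and the third array was the lowest for ATF5. TPM4, a tropomyosin, measured 7.08, 7.0 and 6.49 at 48 h, against 9.50 and 9.45 in DMSO (-2.62 ± 0.21). SRF, the transcription factor that drives many cytoskeletal genes, measured 5.23, 5.35 and 5.88 at 48 h, against 7.51 and 7.49 in DMSO (-2.01 ± 0.18). PHACTR1, an actin and phosphatase regulator, fell by 2.01 on the log2 scale to near the floor.

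Some of the remaining falls were of B-cell genes. LMO2, a LIM-domain cofactor that marks the germinal-centre stage, measured 3.95, 3.74 and 3.92 at 48 h, against 6.35 and 6.01 in DMSO (-2.31 ± 0.19), so that it ended near the floor. PTPN6, the phosphatase SHP-1 that dampens receptor signals, measured 4.48, 4.46 and 4.42 at 48 h, against 5.84 and 6.50 in DMSO (-1.72 ± 0.25). NINJ2, an adhesion molecule (-2.22 ± 0.19), USP2, a deubiquitinase (-1.79 ± 0.21), and HTR3A, a serotonin receptor subunit (-1.67 ± 0.16), fell as well, although the other USP2 probe set, near the floor, was not called. KMO, which hydroxylates kynurenine in tryptophan breakdown, had a log2 fold change of -1.77 ± 0.44 that was called with all 5 arrays (adjusted p = 0.012). Its call was lost without either DMSO array (adjusted p = 0.1 and 0.097) and without the third 48 h array (adjusted p = 0.0737). Of 8 kynurenine pathway enzymes 3 were lower, KMO with KYNU (-1.01) and QPRT (-0.86), and the count was 1 without the first DMSO array and 0 without the second or without the third 48 h array.

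**Figure D2:**
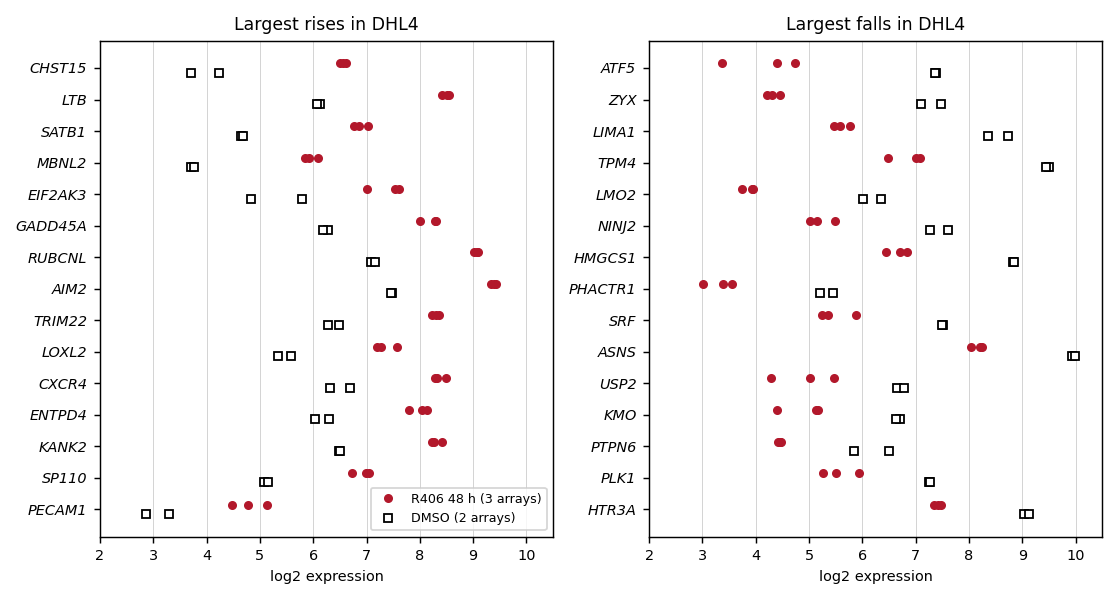
log2 expression of the 15 largest rises (left) and 15 largest falls (right) in DHL4, with red circles for the 3 R406 48 h arrays and open squares for the 2 DMSO arrays. In every row the circles and squares are separate, and they are furthest apart for CHST15 (2.59) and ATF5 (-3.20).

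Cholesterol is built from acetyl-CoA through mevalonate and squalene, and the genes of this route are driven together by the SREBP transcription factors. In the later arm of the route, from squalene to cholesterol, 8 of 9 measured genes were lower at 48 h and none was higher, with a list median of -1.0 beside 0.01 over all genes. In the early arm, 4 of 8 mevalonate pathway genes were lower and none was higher, with a median of -0.69. HMGCS1, which condenses acetyl-CoA and acetoacetyl-CoA at the head of the pathway, measured 6.70, 6.84 and 6.45 at 48 h, against 8.81 and 8.84 in DMSO (-2.17 ± 0.16, a 4.49-fold fall, adjusted p = 1.09e-09). SQLE, the squalene epoxidase, measured 7.87, 7.79 and 7.76 at 48 h, against 9.38 and 9.28 in DMSO (-1.53 ± 0.12, adjusted p = 6.19e-09). DHCR7, which catalyses a last step to cholesterol, measured 5.57, 5.91 and 5.91 at 48 h, against 7.17 and 7.48 in DMSO (-1.53 ± 0.23). For all 3 genes every 48 h array lay below every DMSO array. ACAT2 (-1.42 ± 0.15), IDI1 (-1.05 ± 0.17) and FDPS (-0.84 ± 0.13) of the mevalonate arm and CYP51A1 (-1.47 ± 0.16), EBP (-1.29 ± 0.20) and NSDHL (-1.0 ± 0.19) of the later arm were also lower. The member of the later arm that did not pass was TM7SF2, at 0.16 with an adjusted p of 0.871, named after its value was seen.

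Genes that sense and move sterols changed less uniformly. INSIG1, the membrane anchor that holds SREBP in the endoplasmic reticulum and is itself an SREBP target, measured 8.80, 8.72 and 8.50 at 48 h, against 9.75 and 9.61 in DMSO (-1.01 ± 0.14). ABCG1, a sterol exporter, measured 4.93, 5.04 and 5.20 at 48 h, against 3.97 and 3.86 in DMSO (1.14 ± 0.27), and LRP8, a lipoprotein receptor, measured 5.07, 4.82 and 4.72 at 48 h, against 5.81 and 5.62 in DMSO (-0.85 ± 0.18). Of the 13 measured genes of sterol control, uptake and efflux these were the called ones, 1 higher and 2 lower. The LRP8 call was lost without the first DMSO array (adjusted p = 0.0678), and the ABCG1 call was lost without the first (0.052) or the second (0.0988). The DMSO mean of ABCG1 was near the floor, and its second probe set, also near the floor, was not called (0.18). Of 13 genes of fatty acid synthesis and desaturation, 7 were lower and none was higher, with a median of -0.63. SCD, the stearoyl-CoA desaturase, measured 8.43, 8.43 and 8.22 at 48 h, against 9.64 and 9.79 in DMSO (-1.36 ± 0.14), and FASN, the fatty acid synthase, measured 4.46, 4.57 and 4.18 at 48 h, against 5.70 and 5.85 in DMSO (-1.37 ± 0.23). The arrays did not overlap for either gene, although the second FASN probe set, near the floor, was not called (0.26). The count of 7 was the most fragile of the lipid lists, at 2 without the first DMSO array and 4 without the third 48 h array.

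The promoter of HMGCS1 is shown as an example. The window runs from 250 bases before to 50 bases after the RefSeq start (GRCh38.p14, chr5:43313363-43313662, minus strand), and the capitals mark the CCAAT box, the site of the factor NF-Y, read here on the opposite strand at 155 and 100 bases before the start.
HMGCS1: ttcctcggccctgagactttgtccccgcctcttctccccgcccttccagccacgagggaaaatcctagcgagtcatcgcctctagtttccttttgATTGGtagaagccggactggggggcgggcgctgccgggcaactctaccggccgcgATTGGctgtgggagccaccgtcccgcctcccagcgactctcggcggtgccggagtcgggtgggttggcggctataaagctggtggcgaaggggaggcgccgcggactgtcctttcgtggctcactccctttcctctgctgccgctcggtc
The letters CCAAT, on either strand, were in 7 of 8 windows of the squalene-to-cholesterol list (87.5%) and in 4 of 7 windows of the mevalonate list (57.1%), beside 37.4% of the 9711 windows of measured genes. They are not particular to this route. Mitosis genes had them in 27 of 34 windows (79.4%) and replication genes in 20 of 35 (57.1%). The share was 41.7% both for sterol control, uptake and efflux and for fatty acid synthesis. A sterol element written as TCACNCCAC was in none of the 7 mevalonate windows and none of the 8 later windows, beside 1.06% of the windows of measured genes, which says only that these letters are not in this stretch.

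ATF4 is the transcription factor through which cells that lack amino acids induce asparagine, serine and tRNA synthetase genes. Of 21 measured genes of this programme, 11 were lower at 48 h and none was higher, with a median of -0.57. ASNS, the asparagine synthetase, measured 8.24, 8.20 and 8.04 at 48 h, against 9.94 and 9.99 in DMSO (-1.81 ± 0.10, a 3.50-fold fall, adjusted p = 1.67e-11). PSAT1, an enzyme of serine synthesis, measured 5.54, 5.65 and 5.64 at 48 h, against 7.17 and 7.26 in DMSO (-1.60 ± 0.24), and TRIB3, a pseudokinase induced by ATF4, measured 5.58, 5.19 and 5.13 at 48 h, against 6.69 and 6.46 in DMSO (-1.27 ± 0.22). The arrays of the groups did not overlap for any of the 3. PCK2, the mitochondrial phosphoenolpyruvate carboxykinase, fell by 1.46 on the log2 scale and ended near the floor. ATF4 RNA itself measured 9.27, 9.35 and 9.0 at 48 h, against 9.85 and 9.71 in DMSO (-0.57 ± 0.10, adjusted p = 0.000715), a smaller difference than that of these members.

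The enzymes that load amino acids onto tRNA were lower in part. Of 26 tRNA synthetases and translation factors, 9 were lower and none was higher, with a median of -0.31. WARS1, which loads tryptophan, measured 6.21, 6.10 and 6.05 at 48 h, against 7.76 and 7.75 in DMSO (-1.63 ± 0.15), and AARS1 (-1.07 ± 0.15), GARS1 (-0.91 ± 0.10), SARS1 (-0.87 ± 0.11) and TARS1 (-0.79 ± 0.12) followed. Of 12 amino acid transporters, SLC7A5, the large neutral amino acid carrier, measured 6.96, 6.26 and 6.25 at 48 h, against 7.76 and 7.59 in DMSO (-1.19 ± 0.19), and SLC7A1, the cationic amino acid carrier, had a log2 fold change of -0.68 ± 0.11. These were the 2 transporters that changed.

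Chaperones of the endoplasmic reticulum help newly made secreted and membrane proteins to fold. Of 19 measured genes of this set, 6 were lower and none was higher, with a median of -0.23. HSPA5, the chaperone BiP, measured 9.10, 9.16 and 9.15 at 48 h, against 10.59 and 10.52 in DMSO (-1.42 ± 0.10, adjusted p = 1.09e-09). HSP90B1, the chaperone GRP94, measured 7.40, 7.15 and 7.27 at 48 h, against 8.85 and 8.89 in DMSO (-1.60 ± 0.13), and MANF, a secreted stress protein, measured 6.82, 6.94 and 7.16 at 48 h, against 7.76 and 7.81 in DMSO (-0.81 ± 0.15). Again the 48 h arrays lay below both DMSO arrays for each gene. The list count was 3 without the first DMSO array. Cytosolic chaperones differed little as a group, with 3 of 17 heat shock chaperones lower and none higher, led by DNAJB1, a co-chaperone of HSP70, at -1.31 ± 0.18.

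Genes of mitosis formed the longest list of falls. Of 40 measured genes of mitosis and G2/M, 24 were lower and none was higher, with a median of -0.70, and the called falls ran from -0.46 (NUSAP1) to -1.69 (PLK1). PLK1, the kinase that drives mitotic entry, measured 5.94, 5.50 and 5.26 at 48 h, against 7.25 and 7.27 in DMSO (-1.69 ± 0.28, adjusted p = 0.0002). MKI67, the proliferation antigen Ki-67, measured 6.99, 7.0 and 7.15 at 48 h, against 8.58 and 8.49 in DMSO (-1.49 ± 0.12, adjusted p = 6.19e-09). PRC1, a crosslinker of the spindle midzone, measured 6.90, 6.60 and 6.11 at 48 h, against 8.03 and 8.0 in DMSO (-1.48 ± 0.21). The groups did not overlap for these genes, and for PLK1 and PRC1 the third 48 h array was the lowest. The kinesins KIF4A (-1.40 ± 0.23) and KIF14 (-1.28 ± 0.20) and the inhibitor of apoptosis BIRC5, also a chromosomal passenger (-1.22 ± 0.21), were also lowest on the third 48 h array. On the linear scale the 40 genes summed to between 6181 and 8459 per array at 48 h and between 12017 and 12438 in DMSO. The count of 24 was 18 without the first DMSO array, 20 without the second and 20 without the third 48 h array. In RNA from bulk cultures, fewer dividing cells and less RNA of these genes per cell cannot be told apart.

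Genes of DNA replication differed from DMSO to a smaller extent. Of 39 measured genes, 10 were lower and none was higher, with a median of -0.41. TK1, a thymidine kinase of S phase, measured 4.05, 4.35 and 3.92 at 48 h, against 5.65 and 5.36 in DMSO (-1.40 ± 0.21, adjusted p = 7.31e-05), and LIG1, the ligase that joins Okazaki fragments, measured 5.30, 5.67 and 4.91 at 48 h, against 6.55 and 6.68 in DMSO (-1.32 ± 0.25, adjusted p = 0.00119). Neither gene's groups overlapped. POLE, the catalytic subunit of DNA polymerase epsilon, had a log2 fold change of -1.09 ± 0.23 and lost its call without the second DMSO array (adjusted p = 0.0534). The count of 10 was 5 without the first DMSO array, 6 without the second and 5 without the third 48 h array. Replication-cluster histones moved in both directions, with H2BC12 higher (1.47 ± 0.22) and H4C3 lower (-0.34 ± 0.10) among 20 measured genes, and 13 of the 20 were near the floor in all 5 DHL4 groups. The H4C3 call was lost without the first DMSO array (adjusted p = 0.251), the second (0.15) or the third 48 h array (0.221).

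The promoters of these cell-cycle genes were searched for the letters of elements linked to the cell cycle. The promoters of a pair of mitotic genes are shown for the CHR element, TTTGAA, through which the DREAM and MuvB complexes act (capitals, 29 and 20 bases before the start), and 1 promoter of a replication gene for an E2F element, TTTNNCGC (capitals, 114 bases before the start). The windows are RefSeq promoters of GRCh38.p14, at chr16:23678639-23678938 on the plus strand for PLK1, chr15:90994486-90994785 on the minus strand for PRC1 and chr19:48170295-48170594 on the minus strand for LIG1.
PLK1: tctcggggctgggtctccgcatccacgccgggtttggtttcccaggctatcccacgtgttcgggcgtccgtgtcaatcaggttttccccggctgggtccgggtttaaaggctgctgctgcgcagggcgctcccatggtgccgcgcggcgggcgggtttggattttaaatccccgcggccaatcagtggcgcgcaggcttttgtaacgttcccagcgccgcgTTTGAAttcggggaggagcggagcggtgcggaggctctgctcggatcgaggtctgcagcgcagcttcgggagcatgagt
PRC1: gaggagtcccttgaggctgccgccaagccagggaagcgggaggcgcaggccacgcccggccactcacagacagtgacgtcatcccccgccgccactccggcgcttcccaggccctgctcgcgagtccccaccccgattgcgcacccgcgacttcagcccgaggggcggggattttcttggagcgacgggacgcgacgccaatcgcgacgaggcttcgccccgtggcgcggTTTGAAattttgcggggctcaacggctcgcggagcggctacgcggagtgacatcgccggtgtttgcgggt
LIG1: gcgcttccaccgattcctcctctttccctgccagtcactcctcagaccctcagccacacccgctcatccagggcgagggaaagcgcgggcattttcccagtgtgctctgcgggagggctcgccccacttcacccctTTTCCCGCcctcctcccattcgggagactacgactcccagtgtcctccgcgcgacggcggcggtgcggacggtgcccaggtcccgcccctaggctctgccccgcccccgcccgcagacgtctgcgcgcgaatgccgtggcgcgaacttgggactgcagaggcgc
TTTGAA, on either strand, was in 23 of 34 windows of mitosis genes (67.6%) and in 10.9% of the windows of measured genes. TTTNNCGC was in 22 of 35 windows of replication genes (62.9%), beside 9.79% of the windows of measured genes. The 23 mitosis genes whose window held TTTGAA had a median log2 fold change of -0.70, with 14 called lower. The 11 without it had a median of -0.60, with 5 called lower. For the replication genes, the 22 with TTTNNCGC had a median of -0.43, with 7 called lower. The 13 without it had a median of -0.41, with 2 called lower. Whether the letters act in these cells was not tested.

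**Figure D3:**
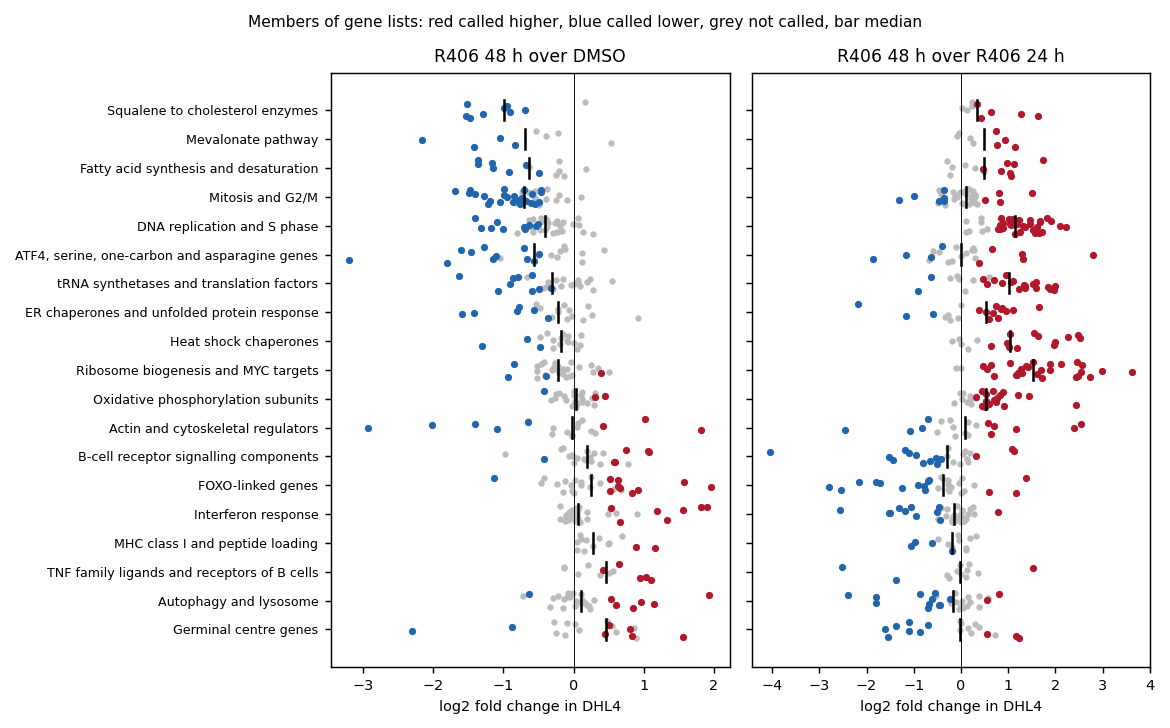
log2 fold changes of the measured members of 19 gene lists in DHL4, for R406 48 h over DMSO (left) and for R406 48 h over R406 24 h (right), with red points called higher, blue points called lower, grey points not called and a black bar at the list median. On the left the lipid, mitosis and ATF4 lists sit below 0, and on the right the ribosome biogenesis and DNA replication lists sit above 0 (medians 1.52 and 1.15).

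Around the B-cell receptor itself, the kinase that R406 inhibits was slightly more abundant as RNA. SYK measured 8.05, 8.17 and 8.26 at 48 h, against 7.43 and 7.39 in DMSO (0.75 ± 0.19, a 1.68-fold rise, adjusted p = 0.0143), and its second probe set, near the floor, was also higher (0.93). All 48 h arrays lay above both DMSO arrays, but the call of the main probe set was lost without the first DMSO array (adjusted p = 0.0902), the second (0.132) or the third 48 h array (0.0611). Of 23 receptor signalling components, 5 were higher and 1 was lower, with a median of 0.20. RASGRP3, which passes diacylglycerol signals on to RAS, measured 8.09, 8.22 and 8.28 at 48 h, against 7.32 and 6.95 in DMSO (1.06 ± 0.11, adjusted p = 3.23e-07). PRKCB, the protein kinase C isoform of B cells, measured 6.27, 6.15 and 5.71 at 48 h, against 5.24 and 4.69 in DMSO (1.08 ± 0.25, adjusted p = 0.0076), and lost its call without the second DMSO array (0.228). The adaptor BLNK (0.60 ± 0.14) lost its call without the same array (adjusted p = 0.104), and the kinase BTK (0.58 ± 0.15) lost it without either DMSO array (0.147 and 0.0817) or the third 48 h array (0.0648). The count of 5 was 3 without the first DMSO array, 1 without the second and 3 without the third 48 h array.

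Genes that restrain the receptor pathway moved both ways, 4 of 17 higher and 1 lower. CBLB, a ubiquitin ligase that dampens antigen receptor signals, measured 5.51, 5.39 and 5.02 at 48 h, against 4.29 and 3.34 in DMSO (1.49 ± 0.19), with a DMSO mean near the floor and a second probe set, itself near the floor, at -0.05. PECAM1, an inhibitory receptor that also marks endothelium, measured 5.13, 4.47 and 4.78 at 48 h, against 3.29 and 2.86 in DMSO (1.72 ± 0.18). Of the 13 fibroblast and endothelial markers it was the 1 that changed, and the defining markers VWF, CDH5 and COL1A1 were near the floor. SLA, an adaptor that lowers antigen receptor levels, was called at 0.89 ± 0.23 and was not called without the second DMSO array (0.46, adjusted p = 0.512) or the third 48 h array (0.79, adjusted p = 0.0694). The count of 4 was 2 without either of those arrays.

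The PI3K-AKT branch had 3 of 18 components higher and 1 lower, and its median was -0.01. TCL1A, a coactivator of AKT in B cells, measured 10.18, 10.21 and 10.38 at 48 h, against 8.73 and 8.82 in DMSO (1.48 ± 0.14, adjusted p = 9.8e-08). PIK3IP1, a membrane inhibitor of PI3K, measured 5.75, 6.12 and 6.36 at 48 h, against 4.69 and 4.31 in DMSO (1.57 ± 0.25), and TSC1, which holds mTOR complex 1 in check, measured 5.0, 5.17 and 5.43 at 48 h, against 3.93 and 4.09 in DMSO (1.19 ± 0.19). All 3 had every 48 h array above both DMSO arrays. So the list held a promoter of AKT activity and an inhibitor of PI3K that were both higher.

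Of 27 measured genes linked to FOXO factors, 9 were higher and 1 was lower, with a median of 0.25. GADD45A, a stress gene that slows the cell cycle, measured 8.29, 8.29 and 8.0 at 48 h, against 6.27 and 6.19 in DMSO (1.97 ± 0.26, adjusted p = 1.27e-05). CCNG2, a cyclin of non-dividing cells, measured 8.29, 8.22 and 7.86 at 48 h, against 7.33 and 7.08 in DMSO (0.92 ± 0.15), and BCL6, the repressor that defines germinal-centre B cells, measured 10.68, 10.60 and 10.72 at 48 h, against 9.85 and 9.82 in DMSO (0.83 ± 0.14, adjusted p = 0.000219). The groups did not overlap for these genes. A second BCL6 probe set, above the floor, was not called (0.44). For CCNG2, 1 other probe set was called (1.00) and 1, also above the floor, was not (0.64). TRIB1 was the 1 lower member (-1.13 ± 0.26), ended near the floor and lost its call without the first DMSO array (adjusted p = 0.135). TXNIP, which limits glucose uptake, was not called (0.25 ± 0.18, adjusted p = 0.597), nor were CCND2, KLF2 and BCL2L11, which were near the floor in both groups. The count of 9 was 5 without the second DMSO array. The forkhead letters TGTTTAC were in 3 of 24 windows of this list (12.5%), beside 2.47% of the windows of measured genes. Those windows belong to TXNIP (0.25), BCL2L11 (0.01) and FOXO4 (0.23), and none of these genes was called. Whether the letters act in these cells was not tested.

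No death-promoting BCL2 family gene passed the test at 48 h, of 12 measured. HRK, which binds and blocks survival proteins of that family, measured 4.02, 3.91 and 4.18 at 48 h, against 3.66 and 3.54 in DMSO (0.44 ± 0.25, adjusted p = 0.424), with its DMSO mean near the floor. The interval of its log2 difference ran from -0.09 to 0.96 at 95% confidence. Among 11 survival genes, PIM2, a survival kinase, measured 4.09, 4.02 and 4.36 at 48 h, against 2.68 and 3.27 in DMSO (1.18 ± 0.15). The DMSO mean of PIM2 was near the floor. BIRC5 was the 1 lower member of that list.

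The germinal-centre programme was mixed. Of 18 measured genes, 5 were higher and 2 were lower, with a median of 0.46. BACH2, a repressor that delays plasma cell differentiation, measured 8.87, 8.84 and 8.75 at 48 h, against 7.34 and 7.17 in DMSO (1.56 ± 0.16, a 2.96-fold rise, adjusted p = 2.86e-07). MME, which encodes the germinal-centre surface marker CD10, measured 8.31, 8.10 and 8.22 at 48 h, against 7.44 and 7.39 in DMSO (0.80 ± 0.13). LMO2, which fell furthest, and MYBL2, a cell-cycle factor (-0.88 ± 0.20), were the 2 lower members, and the MYBL2 call was lost without the first DMSO array (adjusted p = 0.1). Among pan-B-cell genes, 4 of 15 were higher and 1 was lower. CD37, a tetraspanin of B cells, measured 8.85, 8.84 and 9.07 at 48 h, against 7.86 and 7.77 in DMSO (1.10 ± 0.10), and POU2AF1, the B-cell coactivator OBF-1, measured 10.56, 10.52 and 10.47 at 48 h, against 10.07 and 9.96 in DMSO (0.50 ± 0.09). Plasma cell genes had 2 of 17 members higher, CD27 and SSR4 (0.46), and none lower, and SSR4 lost its call without the second DMSO array (adjusted p = 0.144).

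TNF family ligands and receptors of B cells had 5 of 12 measured members higher and none lower, with a median of 0.46. CD27, a costimulatory receptor of memory B cells, measured 9.12, 9.13 and 9.36 at 48 h, against 7.99 and 8.23 in DMSO (1.10 ± 0.14), and CD40, the receptor for T-cell help, measured 6.28, 6.34 and 6.40 at 48 h, against 5.63 and 5.17 in DMSO (0.94 ± 0.15). Their groups did not overlap. CD70, the ligand of CD27, was called at 1.03 ± 0.27 and was not called without the second DMSO array (0.63, adjusted p = 0.421). The DMSO mean of CD70 was near the floor. TNFSF10 (0.65) and TNFRSF14 (0.41) were called but near the floor in both groups. TNFSF10 lost its call without the first DMSO array and TNFRSF14 without either DMSO array, and the count of 5 was 3 without either DMSO array. The NF-kB list, at 1 of 17 higher and none lower, and the receptor-induced chemokines and activation markers, at 2 of 19 higher and none lower, held CD40 and LTB as their called members.

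Of 34 measured interferon-response genes, 7 were higher and none was lower, with a median of 0.06. TRIM22, an antiviral ligase, measured 8.35, 8.30 and 8.23 at 48 h, against 6.48 and 6.29 in DMSO (1.91 ± 0.17, adjusted p = 2.97e-08). IFI16, a DNA sensor related to AIM2, measured 8.79, 8.71 and 8.75 at 48 h, against 7.40 and 7.42 in DMSO (1.34 ± 0.11), and SP110, a nuclear body protein, measured 6.72, 7.0 and 7.05 at 48 h, against 5.08 and 5.15 in DMSO (1.81 ± 0.17). For these genes no array of 1 group reached into the other. OAS1, the enzyme that makes the activator of RNase L, rose by 1.56 ± 0.31 from a DMSO mean near the floor, and its second probe set did not pass the test (0.40). ISG20, an exonuclease, was higher by 1.20 ± 0.23. In all 5 DHL4 groups, 19 of the 34 genes were near the floor. HLA-B measured 8.63, 8.71 and 9.07 at 48 h, against 7.73 and 7.56 in DMSO (1.16 ± 0.12), and HLA-C was higher by 0.89 ± 0.16. These were 2 of 13 class I and peptide loading genes, and their near-identical sequences can share probes, so the 2 rises are not separate measurements.

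Class II genes moved both ways, with 3 of 17 higher and 2 lower, and 1 higher without either DMSO array or the third 48 h array. HLA-DMB, which helps load peptide, measured 8.97, 9.04 and 9.20 at 48 h, against 8.44 and 8.49 in DMSO (0.60 ± 0.11), whereas IFI30, a lysosomal reductase, had a log2 fold change of -0.67 ± 0.13 that lost its call without the second DMSO array (adjusted p = 0.055). Of 28 autophagy and lysosome genes, 6 were higher and 1 was lower. After RUBCNL, the lysosomal proteases CTSA and CTSH led them. CTSA measured 6.71, 6.79 and 7.08 at 48 h, against 5.67 and 5.75 in DMSO (1.15 ± 0.21), and CTSH measured 8.62, 8.88 and 9.03 at 48 h, against 7.82 and 7.94 in DMSO (0.96 ± 0.11).

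Actin and cytoskeletal regulators had 5 of 19 members lower and 3 higher, with a median of -0.02. Besides LIMA1 and PHACTR1, PLEK, the pleckstrin of blood cells, measured 6.94, 6.50 and 6.84 at 48 h, against 8.15 and 8.18 in DMSO (-1.40 ± 0.29), and LCP1, the leukocyte plastin that bundles actin, measured 9.32, 9.34 and 9.17 at 48 h, against 10.34 and 10.39 in DMSO (-1.09 ± 0.16). KANK2, which acts at integrin adhesions, went the other way and measured 8.22, 8.42 and 8.27 at 48 h, against 6.48 and 6.50 in DMSO (1.81 ± 0.16). SRF is counted with the immediate early genes, of which 3 of 18 were lower and none was higher. IER2, another of them, measured 8.24, 8.21 and 8.14 at 48 h, against 9.11 and 9.12 in DMSO (-0.92 ± 0.12). EGR1, the best-known immediate early gene, was near the floor in both groups and was not called (-0.56 ± 0.33, adjusted p = 0.423). Of the 18 genes, 12 were near the floor in all 5 DHL4 groups. DUSP6, an ERK phosphatase, was near the floor in both groups at -0.73 ± 0.16 and lost its call without the first DMSO array (adjusted p = 0.138). Of 24 homing and adhesion genes, 5 were lower and 2 were higher, and the count of 5 was 2 without either DMSO array and 3 without the third 48 h array. RGS16, which shortens chemokine receptor signals, measured 4.36, 4.20 and 4.19 at 48 h, against 5.65 and 5.45 in DMSO (-1.30 ± 0.21).

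The remaining lists held at most 4 called genes each, beside 7.33% of all genes called. MYC RNA measured 10.12, 10.16 and 10.25 at 48 h, against 9.98 and 10.00 in DMSO, and was not called (0.19 ± 0.08, adjusted p = 0.231), although the 48 h arrays lay above both DMSO arrays. MXI1, a MAX partner that opposes MYC, measured 7.35, 7.34 and 7.17 at 48 h, against 6.11 and 6.0 in DMSO (1.23 ± 0.15). Of 29 ribosome biogenesis genes 3 were lower and 1 was higher, with DDX21, a nucleolar helicase, at -0.93 ± 0.13. Called members numbered 1 of 30 cytosolic ribosomal proteins (higher), 3 of 26 oxidative phosphorylation subunits (2 higher), 2 of 20 glycolysis genes (1 higher), 1 of 8 CCT chaperonin subunits (lower), 2 of 17 p53 targets (both higher), 4 of 19 G1 regulators (2 higher), 1 of 13 NRF2 targets (lower) and 3 of 13 ERK feedback genes (1 higher). The ribosomal protein, oxidative phosphorylation, glycolysis, CCT and NRF2 counts were all 0 without the first or without the second DMSO array. The p53 count was 1 without either. G1 regulators were 2 higher and 1 lower without the first, and 1 higher and 2 lower without the second. Among ERK feedback genes, the lower calls were lost without the first and the higher call without the second. None passed among 12 polyamine genes, 21 SMAD and TGF-beta genes and 10 aryl hydrocarbon receptor targets. CYP1A1, the classic target of that receptor, measured 3.63, 3.81 and 4.23 at 48 h, against 2.77 and 3.36 in DMSO (0.82 ± 0.29, adjusted p = 0.0863).

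How 48 h of treatment compared with 24 h of treatment in the same line was asked with the 3 arrays of each time. This contrast shares its 48 h arrays with the one against DMSO, so the values are given side by side and no agreement between them is counted. Between 48 h and 24 h, 3055 of 12165 genes (25.1%) differed, 1749 higher (14.4%) and 1306 lower (10.7%), and 673 of the higher genes (5.53%) and 407 of the lower genes (3.35%) differed at least 2-fold. The higher genes included 27 of 29 ribosome biogenesis genes and 32 of 39 DNA replication genes, and the lower genes included DEPP1, TSC22D3, APOD and HRK. This comparison has 3 arrays on each side, and the one against DMSO has 2 on 1 side.

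Of 29 ribosome biogenesis genes, 27 were higher at 48 h than at 24 h and none was lower, with a median of 1.52 beside -0.02 over all genes. The polyamine list had 5 of 12 genes higher and 1 lower (median 0.12). SRM, the spermidine synthase and the largest rise of the polyamine list, measured 8.42, 8.54 and 8.50 at 48 h and 3.60, 5.02 and 5.06 at 24 h (3.93, adjusted p = 9.5e-13), beside 8.51 and 8.81 in DMSO. In the ribosome biogenesis list, NME1, a nucleoside diphosphate kinase, measured 10.04, 10.00 and 9.92 at 48 h and 5.97, 6.63 and 6.49 at 24 h (3.62), beside 9.71 in both DMSO arrays. NOP16, a nucleolar protein of ribosome assembly, measured 7.99, 7.93 and 7.73 at 48 h and 5.13, 4.57 and 5.0 at 24 h (2.98), beside 8.42 and 8.38 in DMSO. For all 3 genes the 48 h arrays lay far above the highest 24 h array, whereas the fit against DMSO did not call them (SRM -0.17, adjusted p = 0.877). A second NOP16 probe set, above the floor, was called lower against DMSO (-0.96, adjusted p = 0.0392). MYC measured 8.63, 8.61 and 8.71 at 24 h, below its 48 h values (1.53, adjusted p = 4.3e-14). PNP (3.36), GCSH (3.30) and PFAS (3.0), enzymes of purine and glycine metabolism, belonged to the same largest differences.

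The promoters of SRM and NME1 are shown because MYC binds the E-box, CACGTG, which lies 199 bases before the start of SRM and 35 bases after the start of NME1 (capitals). The RefSeq windows of GRCh38.p14 are chr1:11059969-11060268 on the minus strand for SRM and chr17:51153309-51153608 on the plus strand for NME1.
SRM: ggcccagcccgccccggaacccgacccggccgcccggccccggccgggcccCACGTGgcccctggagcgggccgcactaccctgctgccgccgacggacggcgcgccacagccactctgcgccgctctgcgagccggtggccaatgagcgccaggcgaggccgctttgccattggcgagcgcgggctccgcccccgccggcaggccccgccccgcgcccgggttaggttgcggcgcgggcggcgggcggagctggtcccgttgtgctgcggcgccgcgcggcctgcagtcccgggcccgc
NME1: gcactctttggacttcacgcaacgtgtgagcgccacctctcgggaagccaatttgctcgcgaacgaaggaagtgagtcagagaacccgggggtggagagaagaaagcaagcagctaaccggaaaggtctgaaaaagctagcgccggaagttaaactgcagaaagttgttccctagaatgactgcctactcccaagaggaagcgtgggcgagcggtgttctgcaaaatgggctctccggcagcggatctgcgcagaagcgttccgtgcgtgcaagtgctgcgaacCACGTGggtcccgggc
CACGTG was in 10 of 24 windows of ribosome biogenesis genes (41.7%), beside 9.43% of the windows of measured genes. That list holds NME1 and not SRM. A match describes the letters and not binding in these cells.

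Other building and energy lists stood higher at 48 h than at 24 h in the same way. DNA replication had 32 of 39 genes higher and none lower (median 1.15), tRNA synthetases and translation factors had 18 of 26 higher and 2 lower (1.01), the CCT chaperonin had 8 of 8 higher (1.27), heat shock chaperones had 12 of 17 higher and none lower (1.04), oxidative phosphorylation had 17 of 26 higher and none lower (0.52), and glycolysis had 13 of 20 higher and none lower (0.62). CDK4, the G1 kinase, measured 8.65, 8.56 and 8.34 at 48 h and 6.13, 6.29 and 5.80 at 24 h (2.44). Mitosis differed from these lists by its counts, with 4 of 40 genes higher, 6 lower and a median of 0.10, and 8 higher and 2 lower without the third 48 h array. PLK1 measured 5.94, 5.50 and 5.26 at 48 h and 5.43, 5.34 and 5.67 at 24 h, so that the groups overlapped (0.09, adjusted p = 0.87). ZYX (0.07, adjusted p = 0.9) and WARS1 (-0.09, adjusted p = 0.74) likewise had no detectable difference between the times. HMGCS1 was 0.93 higher at 48 h, with 24 h values of 5.84, 5.68 and 5.69.

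The genes that were lower at 48 h than at 24 h were led by DEPP1, a FOXO-regulated autophagy gene, which measured 2.70, 2.76 and 2.78 at 48 h and 8.50, 8.62 and 8.34 at 24 h (-5.74, adjusted p = 8.1e-14). APOD, a lipocalin, measured 2.69, 2.68 and 2.90 at 48 h and 7.17, 7.84 and 7.89 at 24 h (-4.88), and HRK measured 4.02, 3.91 and 4.18 at 48 h and 8.38, 8.11 and 8.62 at 24 h (-4.33). DEPP1 and APOD at 48 h were near the floor, so their differences may be understated, and the other HRK probe sets, near the floor, showed smaller differences (-0.73 and -0.10). TSC22D3, the glucocorticoid-induced leucine zipper, measured 5.33, 5.09 and 5.37 at 48 h and 10.10, 10.12 and 10.12 at 24 h (-4.85), beside 5.76 and 5.47 in DMSO. PHYH, a peroxisomal hydroxylase (-4.50), FCMR, the IgM Fc receptor (-4.43), CD69, an early activation marker (-4.26), and MAD1L1, a spindle checkpoint protein (-4.25), made up the rest of the 8 largest, and PHYH, FCMR and CD69 were also near the floor at 48 h. None of these 8 genes was called against DMSO at 48 h. CXCR4 (-3.07) and PRKCB (-4.06) were also lower at 48 h than at 24 h, while their 48 h values stayed above DMSO. Of 27 FOXO-linked genes, 11 were lower and 3 were higher, and 11 of 23 receptor components were lower and 3 were higher.

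DCN, the matrix proteoglycan decorin and a marker of fibroblasts, had the largest rise between the times. It measured 8.46, 8.80 and 8.78 at 48 h and 4.42, 4.09 and 4.76 at 24 h (4.25, adjusted p = 7.5e-16), beside 8.34 and 8.51 in DMSO. THY1, another stromal marker, was 2.96 higher at 48 h than at 24 h. The fibroblast collagens COL1A1, COL1A2 and COL3A1 were near the floor in all 5 DHL4 groups, and all 3 other DCN probe sets were also higher at 48 h than at 24 h. The dimmest of these was also called higher against DMSO (0.89, adjusted p = 0.0011), which the probe set chosen for DCN was not (0.25, adjusted p = 0.568). HTR3A measured 7.42, 7.34 and 7.47 at 48 h and 3.44, 3.56 and 2.95 at 24 h (4.09).

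**Figure D4:**
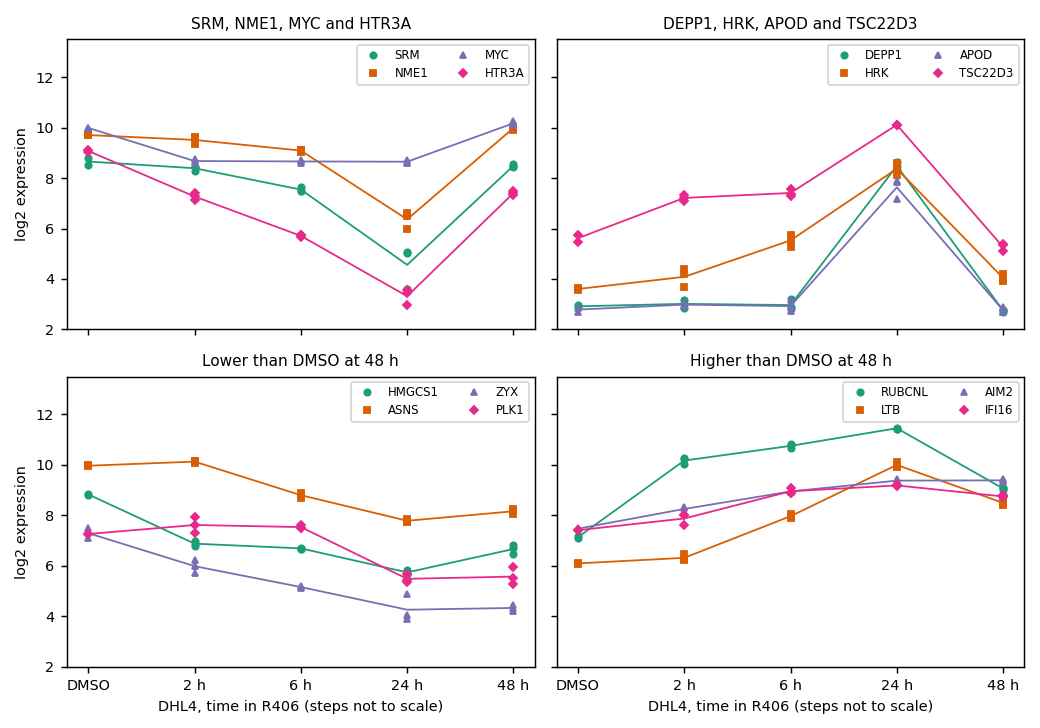
log2 expression of 16 genes on every DHL4 array, with DMSO at the left and then 2, 6, 24 and 48 h of R406, and lines through the group means. SRM, NME1, MYC and HTR3A are lowest or near their lowest at 24 h, DEPP1, HRK, APOD and TSC22D3 are highest at 24 h, and the 8 genes of the lower panels remain apart from DMSO at 48 h.

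Whether the 48 h response differed between the lines was tested against DHL6 with an interaction contrast, the DHL4 difference from DMSO minus the DHL6 difference from DMSO. It was called for 618 of 12165 genes (5.08%), 421 with a higher response in DHL4 (3.46%) and 197 with a lower one (1.62%). After quantile normalization the split was 325 higher and 339 lower. The lines do not share arrays, but 1 fit gave each gene a single estimate of spread for both. A gene with little spread is therefore called more easily in both lines. Their own calls are set side by side below with that limit, not as independent results. Of the 430 genes higher in DHL4, 192 were higher in DHL6 (44.7%) and 22 were lower, and of the 462 genes lower in DHL4, 334 were lower in DHL6 (72.3%) and 6 were higher. In DHL6, 1021 of the 12165 genes were called higher (8.39%) and 1810 lower (14.9%). Calls of at least 2-fold made up 1.22% of the 12165 genes on the higher side and 4.04% on the lower side. The shared genes made up 18.8% of the genes called higher in DHL6 and 18.5% of those called lower there. The log2 fold changes of the lines correlated at r = 0.44 across 12165 genes, which are not independent replicates and share the array design. The number of interaction calls was 236 without the second DHL4 DMSO array and 1239 without the second DHL6 48 h array. Replicate DHL6 arrays at 48 h correlated at r of 0.978, 0.980 and 0.983, below the 0.992 to 0.996 of the compared DHL4 groups. The pooled spread may therefore understate the spread of the DHL6 48 h arrays.

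**Figure D5:**
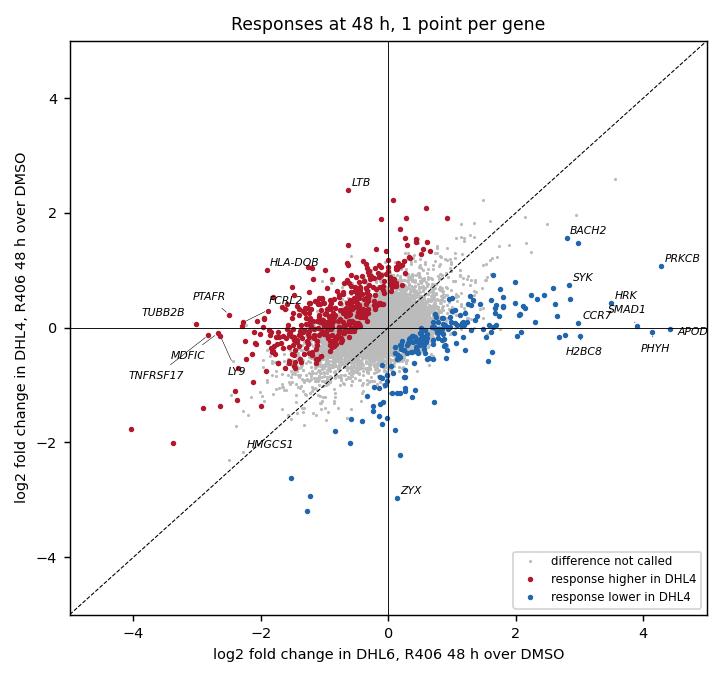
log2 fold change of R406 48 h over DMSO in DHL4 (vertical axis) and in DHL6 (horizontal axis), 1 point per gene, with the dashed line marking equal responses. Red points are the 421 genes with a higher response in DHL4 and blue points the 197 with a lower response, and HMGCS1 lies near the dashed line while LTB and ZYX lie along the DHL4 axis.

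PRKCB (-3.21), ZYX (-3.10) and LTB (3.03) had the largest line differences among genes called in DHL4. LTB was higher by 2.40 in DHL4 and lower in DHL6 (-0.63, adjusted p = 5.6e-05), a difference of 3.03 ± 0.15 (adjusted p = 2.8e-12). On the DHL6 arrays it measured 7.78, 8.10 and 7.75 at 48 h, against 8.49, 8.52 and 8.49 in DMSO. ZYX fell by 2.97 on the log2 scale in DHL4 and had a log2 fold change of 0.14 in DHL6 (adjusted p = 0.75), a difference of -3.10. On the DHL6 arrays it measured 3.69, 3.22 and 3.08 at 48 h, against 3.42, 2.46 and 3.71 in DMSO, and those groups overlapped near the floor. NINJ2 (-2.41), USP2 (-1.89), ATF5 (-1.93), TRIM22 (1.64) and MBNL2 (2.14) also differed between the lines in the size of their response. HMGCS1, with log2 fold changes of -2.17 in DHL4 and -2.29 in DHL6, had a difference of 0.12 with a 95% interval of -0.31 to 0.555. SQLE (0.05), INSIG1 (0.36) and LMO2 (0.20) likewise had no called difference. Of the other SQLE probe sets, both above the floor, 1 was called with a lower response in DHL4 (-0.64) and 1 was not called (0.41).

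Other genes had a larger change in DHL6 than in DHL4. PRKCB rose by 1.08 in DHL4 and by 4.29 in DHL6 (difference -3.21), and SYK rose by 0.75 in DHL4 and by 2.84 in DHL6 (difference -2.09, adjusted p = 1.6e-05), although the second SYK probe set showed no called difference (0.16). HRK, at 0.44 in DHL4 and not called there, rose by 3.49 in DHL6 (difference -3.05), and APOD (-4.45), PHYH (-4.22), SMAD1, a BMP signal transducer (-3.87), the histone H2BC8 (-3.14) and CCR7, a lymph-node homing receptor (-2.90), were likewise called in DHL6 and not in DHL4, with DHL4 values near the floor. TUBB2B (3.08), HLA-DOB (2.92), PTAFR (2.73), TNFRSF17 (2.69), MDFIC (2.58), LY9 (2.50) and FCRL2 (2.37) were lower in DHL6 and were not called in DHL4. HLA-DOB was the one of these with a sizeable value in DHL4, at 7.42, 7.35 and 7.66 at 48 h and 6.50 and 6.43 in DMSO (1.01 ± 0.37, adjusted p = 0.105). Second probe sets of PTAFR (0.57), LY9 (0.47), MDFIC (0.52) and SMAD1 (-0.47) showed no called line difference. Neither did the other HRK probe sets (-0.52 and -0.04), whereas those of PRKCB (-2.35), ZYX (-2.515) and H2BC8 (-1.45) did. DNA replication genes had 8 of 39 members with a higher response in DHL4 and none with a lower one, with 34 of 39 lower in DHL6, and ribosome biogenesis had 5 of 29 with a higher response and none lower, with 22 of 29 lower in DHL6. Without the second DHL4 DMSO array both counts of higher responses were 1. In the squalene-to-cholesterol list 1 of 9 genes differed between the lines, and in the mevalonate list none of 8 did.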

How the data were processed

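RNA from cells homogenised in Trizol was hybridised to Affymetrix arrays, per the labels' protocols. The deposited values are log2 expression per probe set made with RMA, per the submitters' processing notes, which give no version, and RMA compresses differences near the lower end of the scale. Values of 22277 probe sets ran from 1.99 to 13.49. Platform annotation gave 19724 probe sets 1 gene symbol, 568 several and 1923 none, and 62 were array controls. The probe set with the highest mean over all 29 arrays stood for each of 12165 genes. Of these genes, 4505 had more than 1 probe set.

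A linear model with a mean for each of 10 groups was fitted to 29 arrays in limma 3.58.1 (R 4.3.3) with lmFit and eBayes, with 19 degrees of freedom from the arrays and 5.05 from the prior. Benjamini-Hochberg adjusted p-values in the text come from this fit over 12165 genes, with a threshold of 0.05. On data simulated with known changes the fit was tested before use. Scan dates were not given in the sources used here, so batches were not tested, and the number of arrays limits the precision.

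The genes named were the 15 largest called rises and 15 largest called falls with no overlap between groups, up to 5 called members of each of 49 lists, the 8 largest each way of the other comparisons, and a short list of fixed genes. Other genes are said in the text to be chosen after their values were seen. The lists, members and rule were chosen with earlier results of these data known. The labels do not say that a replicate number marks a shared culture or day, so the numbers were not used as pairs. Deviations from group means correlated at r of 0.22 and -0.03 for same-numbered 48 h and DMSO arrays. With 2 DMSO arrays their deviations are mirror images of each other, so these values cannot decide whether arrays were paired. Alternatives covered the arrays fitted, normalization, dim genes, probe set choice, the variance prior, array weights, a replicate block and leaving out each array. Promoter windows are RefSeq sequences of GRCh38.p14, from 250 bases before to 50 after the start, for 9711 of the measured genes.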

Additional observations from a re-analysis of the deposited data

Results flagged for a closer look

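The 48 h response differed between DHL4 and DHL6, by the interaction test, for 421 genes with a higher response in DHL4 and 197 with a lower one. The genes with the largest such differences, given as the DHL4 log2 response minus the DHL6 log2 response, were LTB (3.03), TUBB2B (3.08), HLA-DOB (2.92), PTAFR (2.73), TNFRSF17 (2.69), MDFIC (2.58), LY9 (2.5) and FCRL2 (2.37) on the higher side. On the lower side they were APOD (-4.45), PHYH (-4.22), SMAD1 (-3.87), PRKCB (-3.21), H2BC8 (-3.14), ZYX (-3.1), HRK (-3.05) and CCR7 (-2.9). APOD, PHYH, SMAD1, H2BC8, CCR7, MDFIC and TUBB2B were near the floor in DHL4 at 48 h and in DMSO. Other probe sets of PTAFR, LY9, MDFIC, SMAD1 and HRK showed no called difference between the lines.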

How the results depend on the processing

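For 48 h against DMSO, 892 genes were called. With array weights the count was 1611 (816 higher and 795 lower). Leaving out single arrays gave between 416 and 759 called genes, between 169 and 335 higher and between 216 and 424 lower. The low ends of the called and higher counts came without the second DMSO array, and that of the lower count came without the first. With a replicate block 774 genes were called (392 higher and 382 lower). For 48 h against 24 h, the counts stayed within 1.5 times the reported ones under all 15 alternatives, with 3012 called under the replicate block and between 2656 and 2832 when single arrays were left out. For the difference between the lines, 404 genes (260 higher) were called with only the 11 arrays concerned, 339 were lower after quantile normalization, 1126 (823 higher and 303 lower) were called with array weights, and 557 under the replicate block. Leaving out single arrays there gave between 236 and 1239 called, between 128 and 894 higher and between 108 and 345 lower. The causes were not tested. The 183 named genes included some that were not called against DMSO. Of the 183, 110 kept their direction and stayed called, or stayed uncalled, under all 14 alternatives. A further 56 were called and lost the call under at least 1. No gene that was called in either fit reversed. The labels do not say that a replicate number marks a shared culture, so the block shows only how the count moves. Genes near the floor, 58.5% in DMSO, have compressed differences, and 2 DMSO arrays limit what could be called.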
